A study of Ovis aries with 30 samples.

Results

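HBB, the adult beta chain of hemoglobin, and AHSP, the chaperone of the alpha chain, were described across epicardial adipose tissue, the fat on the surface of the heart, from 30 sheep. Every probe that the array annotation ties to either gene, by gene name or by the symbol in its description, was taken whatever its signal. This gave 4 probes for 2 of the 1033 genes that could be named among the 15008 probes of a single-colour Agilent sheep array. All 4 probes passed the filter on dim probes.

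Tissue was compared between 8 Control fetuses at term, 6 CORT fetuses at term, 7 Control lambs of 2 weeks and 9 CORT lambs of 2 weeks. Ewes of CORT fetuses had been infused with cortisol at 1 mg/kg/day and ewes of CORT lambs at 0.5 mg/kg/day, in both cases beginning on gestational day 115. Ewes of Control animals received no cortisol, and no fetus or lamb was itself infused. Infusion to ewes of the lambs was restricted to the night, and the study calls its model at the higher dose continuous. Dose, schedule and age therefore cannot be told apart where the fetal and the lamb cortisol effects are set against each other. The study mentions twins in both lamb groups without a label that marks them, and the lambs were tested as if unrelated. Fetuses lay on 2 slides and lambs on another 2, with both treatments on each slide, so age and slide cannot be told apart.

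Hemoglobin is assembled from alpha-type and beta-type chains in red cell precursors. AHSP binds free alpha chains and keeps them from precipitating until a beta chain is available, and its transcript is largely restricted to maturing erythroid cells. Immature red cells in the circulation still hold globin mRNA, so a piece of vascular tissue carries it with its blood. Sheep switch from a fetal to an adult beta chain around birth, and some adult sheep can also produce a juvenile beta chain, HBBC, under anemia. In a bulk sample, fewer erythroid cells and less RNA per cell cannot be told apart.

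The probe sequences are shown because the results turn on what each probe can bind. The first HBB probe, A_70_P051261, was designed to the HBB transcript, and the array lists the HBBC transcript under the same probe, so its signal cannot be assigned to HBB alone.
HBB coding probe: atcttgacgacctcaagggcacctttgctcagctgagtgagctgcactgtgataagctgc
The second HBB probe, A_70_P061046, was designed to an expressed sequence tag (EST), a single cDNA read, from adult fracture callus. Its longest run in common with the coding probe is 7 bases, and only its beginning is given here.
HBB EST probe, first 30 of 60 bases: gcatctggcctctgcttaatatagacactt
Both AHSP probes were designed to 1 EST and are offset by 1 base. The 59 bases they share are in capitals, so they are repeat measurements of almost the same target and not independent evidence.
AHSP probe A_70_P054887: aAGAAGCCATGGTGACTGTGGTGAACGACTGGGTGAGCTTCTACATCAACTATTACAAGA
AHSP probe A_70_P054886: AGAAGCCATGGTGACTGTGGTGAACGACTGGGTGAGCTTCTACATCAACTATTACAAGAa
Another probe, A_70_P022102, is described on the array as the fetal beta subunit of hemoglobin and serves as a comparison. Its longest run in common with the coding HBB probe is 6 bases.
Fetal beta-globin probe, first 30 of 60 bases: aaagtccaggtttgcagaaaggacacaact
No other probe of the array shares a run of 15 bases with an HBB probe or the fetal beta-globin probe, and 1 other probe does so with AHSP probe A_70_P054886. These runs compare probes with each other and not with transcripts, so they do not show which transcripts a probe binds. In the RefSeq gene table (assembly ARS-UI_Ramb_v3.0), HBB and HBBC are on the same chromosome as the embryonic chain HBE1, and AHSP is on the same chromosome as the alpha-type chains HBM and HBQ1.

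Values below are log2 intensities after background correction and quantile normalization over all 30 arrays. A probe is called well above background as the scanner software flagged it. Per array, the median foreground intensity was 131.6 to 240.4, the median background 34 to 46, and 70.4% to 83.5% of the spots of an array were well above background. The precision is limited by the number of animals. No spot of the 5 probes was saturated or an outlier.

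HBB was strongly detected in every animal and varied widely among animals of the same group. In the 8 Control fetuses the coding probe ranged from 12.06 to 15.75 with a median of 13.65. In the 6 CORT fetuses it ranged from 11.21 to 16.44 with a median of 14.94. The brightest and the dimmest fetus were both in the CORT group. In the 7 Control lambs the values ran from 11.25 to 16.41 with a median of 13.99, and in the 9 CORT lambs from 11.70 to 15.17 with a median of 13.68. All 4 groups overlapped over most of their range, and the brightest animal of a group exceeded the dimmest by 12.9-fold in Control fetuses, 37.5-fold in CORT fetuses, 35.7-fold in Control lambs and 11.1-fold in CORT lambs. The raw foreground of this probe lay between 2480 and 104868.

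On the coding probe the order of the group means was CORT fetus at 14.47 ± 1.86 (SD, n = 6), Control lamb at 13.95 ± 1.83 (SD, n = 7), Control fetus at 13.94 ± 1.45 (SD, n = 8) and CORT lamb at 13.83 ± 1.05 (SD, n = 9). No neighbours in this order differed beyond their spread. On the EST probe the order was different, with CORT fetus at 14.15 ± 1.63 (SD, n = 6), CORT lamb at 13.99 ± 1.18 (SD, n = 9), Control lamb at 13.76 ± 1.83 (SD, n = 7) and Control fetus at 12.85 ± 1.63 (SD, n = 8). The within-group SD pooled over the 4 groups was 1.53, the 25th largest of 13030 probes, against a median of 0.18 over all those probes. The EST probe of HBB had a pooled SD of 1.56.

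AHSP was dim, and in most lambs it was at the edge of detection. Probe A_70_P054887, the brighter of the pair, ranged in Control fetuses from 6.56 to 8.20 with a median of 7.14, and 6 of 8 were well above background. In CORT fetuses it ranged from 6.46 to 9.24 with a median of 7.33, and 4 of 6 were well above background. The highest AHSP value was in CORT fetus 2, which also had the highest HBB value. In Control lambs AHSP ranged from 6.52 to 7.00 with a median of 6.68, well above background in 2 of 7. In CORT lambs it ranged from 6.46 to 7.31 with a median of 6.82, well above background in 5 of 9. The highest lamb, at 7.31, was exceeded by 6 of 14 fetuses, while the lowest fetuses lay among the lambs.

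Group means of AHSP were 7.46 ± 1.00 (SD, n = 6) in CORT fetuses, 7.29 ± 0.64 (SD, n = 8) in Control fetuses, 6.88 ± 0.25 (SD, n = 9) in CORT lambs and 6.75 ± 0.20 (SD, n = 7) in Control lambs. Within an age, the neighbours in this order did not differ beyond their spread. Values this close to background are compressed on the log2 scale by the added offset, so differences between groups may be understated.

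**Figure D1:**
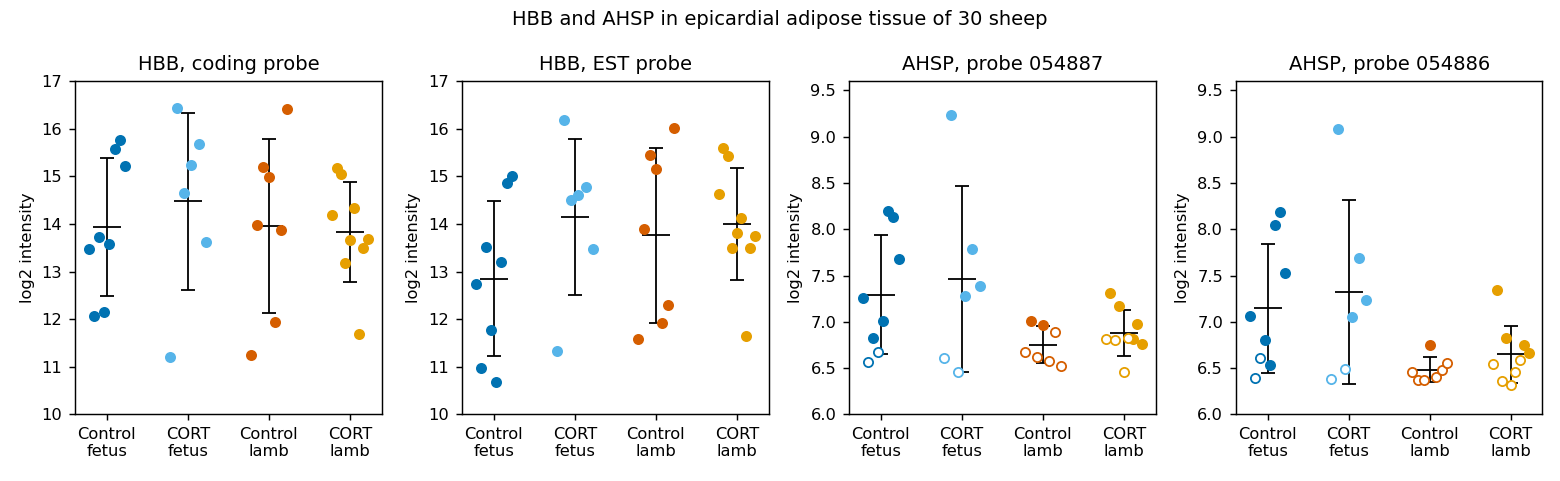
Log2 intensity of both HBB probes and both AHSP probes by group. Each point is 1 animal, open points were not well above background, and the bars are the mean and SD; HBB spans 11.21 to 16.44 on the coding probe with overlapping groups, and on AHSP probe A_70_P054887 no lamb is above 7.31.

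The first comparison, Control lambs with Control fetuses, asks how levels change with maturation. HBB was at the same mean in both, with a difference of 0.01 (SE 0.76), a 95% confidence interval of -1.61 to 1.62 and a limma adjusted p = 0.997. That interval runs from 0.327-fold to 3.08-fold, so a change of that size was not detectable with 7 and 8 animals. An exact two-sided permutation test over the animals gave p = 0.994. The EST probe of HBB had a higher mean in Control lambs, 13.76 ± 1.83 (SD, n = 7) compared to 12.85 ± 1.63 (SD, n = 8), a difference of 0.91 (SE 0.81) with a limma adjusted p = 0.396.

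AHSP had a lower mean in Control lambs by 0.54 on probe A_70_P054887 (SE 0.23, 95% confidence interval -1.03 to -0.05), that is 1.45-fold. All 7 Control lambs were under the mean of the Control fetuses, 7.29, but the median of the Control fetuses, 7.14, was under it too. Control fetuses averaged 6.83 on slide 1 and 7.76 on slide 2, and Control lambs 6.82 on slide 3 and 6.66 on slide 4. The mean of the fetuses on slide 1 was thus close to that of the lambs on slide 3. The AHSP difference on A_70_P054887 did not pass the adjusted threshold in limma (adjusted p = 0.0740), and the exact two-sided permutation test gave p = 0.0575. On the overlapping probe A_70_P054886 AHSP fell by 0.66 (SE 0.24), with a limma adjusted p = 0.0397 and an exact permutation p = 0.0233, so the call rests on which of the 2 probes is read. It was also past the threshold on A_70_P054887 without Control fetus 2 (-0.65, adjusted p = 0.0276) or without Control fetus 4 (-0.63, adjusted p = 0.0415) in limma. With slide as a random block the difference on this probe was -0.54 and did not pass (limma adjusted p = 0.115). The signal that the scanner software had itself corrected, with no offset added, gave a difference of -2.02 for this probe (limma adjusted p = 0.0328). Most Control lambs were not well above background, so without an offset this difference may be overstated.

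The background against which AHSP is read is high. Of 13096 tested probes, 40.9% passed the adjusted threshold in this comparison, 19.9% higher and 21% lower in Control lambs. With HBB (coding probe) as a covariate in the limma fit, the AHSP difference was -0.54 (SE 0.19, adjusted p = 0.0341), and with the EST probe as the covariate it was -0.66 (SE 0.22, adjusted p = 0.0276). These fits called 5455 and 5152 of the 13096 tested probes. Each fit assumes the same slope on HBB in both groups. On the coding probe the slope of AHSP was 0.42 in Control fetuses and 0.002 in Control lambs. The covariate fits therefore cannot give an age difference at equal HBB. Taken per animal as AHSP minus HBB, the difference between these groups was -0.55 with the coding probe (exact two-sided permutation p = 0.467, adjusted p = 0.583 over 15 such comparisons) and -1.45 with the EST probe (exact permutation p = 0.0981, adjusted p = 0.216).

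The second comparison, CORT with Control lambs, asks what a prior exposure to maternal cortisol left at 2 weeks. HBB differed by -0.12 (SE 0.65, 95% confidence interval -1.49 to 1.25, limma adjusted p = 1.00), with 4 of 9 CORT lambs above the Control mean and 5 under it. The EST probe gave 0.24 (SE 0.68), the opposite sign. Within slides the HBB difference was 0.54 on slide 3 and -0.70 on slide 4. AHSP differed by 0.13 (SE 0.11, 95% confidence interval -0.10 to 0.36, limma adjusted p = 1.00). The count of CORT lambs above the Control mean was 8 of 9 on this probe and 6 of 9 on probe A_70_P054886, with most Control lambs not well above background. The scanner-corrected signal gave an AHSP difference of 0.81 (limma adjusted p = 1.00). Neither gene passed the test, nor did any other probe, the share past the adjusted threshold in limma being 0%. At an unadjusted p under 0.05, limma called 465 probes, or 3.55%, and no HBB or AHSP probe was among them.

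In fetuses, HBB had a higher mean in the CORT group by 0.53 on the coding probe (SE 0.80, 95% confidence interval -1.18 to 2.23) and by 1.30 on the EST probe (SE 0.80, 95% confidence interval -0.40 to 3.00). The limma adjusted p was 1.00 for both. Single animals moved the value of the coding probe, which was 0.13 without CORT fetus 2 and 1.18 without CORT fetus 1. The coding probe differed by 1.25 within slide 1 and by -0.19 within slide 2. AHSP differed by 0.17 (SE 0.40, 95% confidence interval -0.68 to 1.02, limma adjusted p = 1.00). CORT fetus 2 set the sign of that value, since without it the AHSP difference was -0.19. As in lambs, 0% of the probes passed the adjusted threshold in limma, and 308 probes, 2.35%, were under an unadjusted p of 0.05, again with no HBB or AHSP probe among them.

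The lamb cortisol effect minus the fetal one was -0.65 for HBB (SE 1.07, 95% confidence interval -2.83 to 1.54) and -0.04 for AHSP (SE 0.40, 95% confidence interval -0.87 to 0.79). Neither differed between the exposures by limma's interaction term (adjusted p = 1.00 for both). The HBB value was -1.30 without CORT fetus 1 and -0.24 without Control lamb 7. Its interval allows differences from 0.140-fold to 2.90-fold. Of all tested probes 0% passed the adjusted threshold in limma, and 274, 2.09%, passed at an unadjusted p under 0.05.

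**Figure D2:**
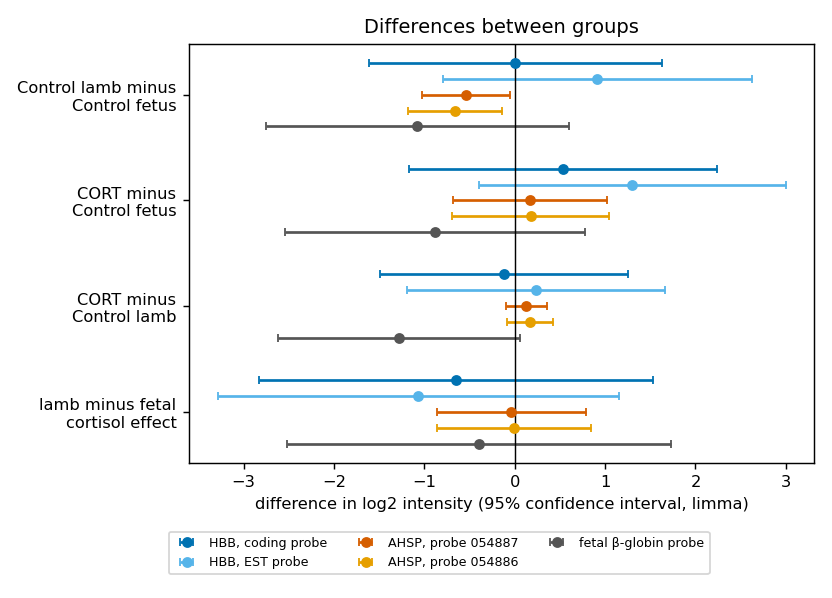
Differences in log2 intensity for the 4 comparisons, with 95% confidence intervals from limma, for the HBB, AHSP and fetal beta-globin probes. The intervals are not adjusted for the number of probes tested. Those of HBB are wide and hold 0 throughout, and those of both overlapping AHSP probes are below 0 between Control lambs and Control fetuses. There A_70_P054887 did not pass the adjusted threshold (limma adjusted p = 0.0740).

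The question whether HBB and AHSP rose and fell together in the same animals was asked within each group. In Control fetuses they did, with Pearson r = 0.95 (n = 8, exact permutation p = 0.000744, adjusted p = 0.00298 over the 4 groups) and Spearman rho = 0.88 (exact permutation p = 0.00724, adjusted p = 0.0290). Without the 2 animals farthest from the median of HBB, r was 0.91. With the EST probe of HBB in place of the coding probe, r was 0.70 and the relation did not pass the threshold (exact permutation, adjusted p = 0.240).

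Slide moved with both genes in Control fetuses. On slide 1 the 4 animals had HBB values of 13.47, 12.06, 13.72 and 12.15 and AHSP values of 7.26, 6.56, 6.82 and 6.68. On slide 2 the 4 animals had HBB values of 13.58, 15.58, 15.75 and 15.22 and AHSP values of 7.01, 8.20, 8.13 and 7.68. The mean of HBB was thus 12.85 on slide 1 and 15.03 on slide 2. The permutation in Control fetuses exchanged animals across slides, so this shift counts in its p-value. Within slides, over the 7 fetuses on each and with the treatment means removed, r was 0.72 on slide 1 and 0.79 on slide 2, with no p computed.

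In CORT fetuses r was 0.69 (n = 6, exact permutation p = 0.139, adjusted p = 0.278) and rho 0.71 (exact permutation p = 0.136, adjusted p = 0.272), and r dropped to 0.29 without the 2 farthest animals, CORT fetuses 1 and 2 by HBB. In lambs no relation was detectable, but AHSP was well above background in only 2 of 7 Control lambs and 5 of 9 CORT lambs. Values this close to background leave little range in which a relation could show. Control lambs had r = 0.02 (n = 7, exact permutation p = 0.964, adjusted p = 0.964) and rho = -0.21 (exact permutation p = 0.662, adjusted p = 0.776), with r = 0.38 without the 2 farthest. CORT lambs had r = 0.21 (n = 9, exact permutation p = 0.590, adjusted p = 0.786) and rho = 0.12 (exact permutation p = 0.776, adjusted p = 0.776), with r = -0.29 without the 2 farthest. Whether the relation differs between the groups was not tested.

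**Figure D3:**
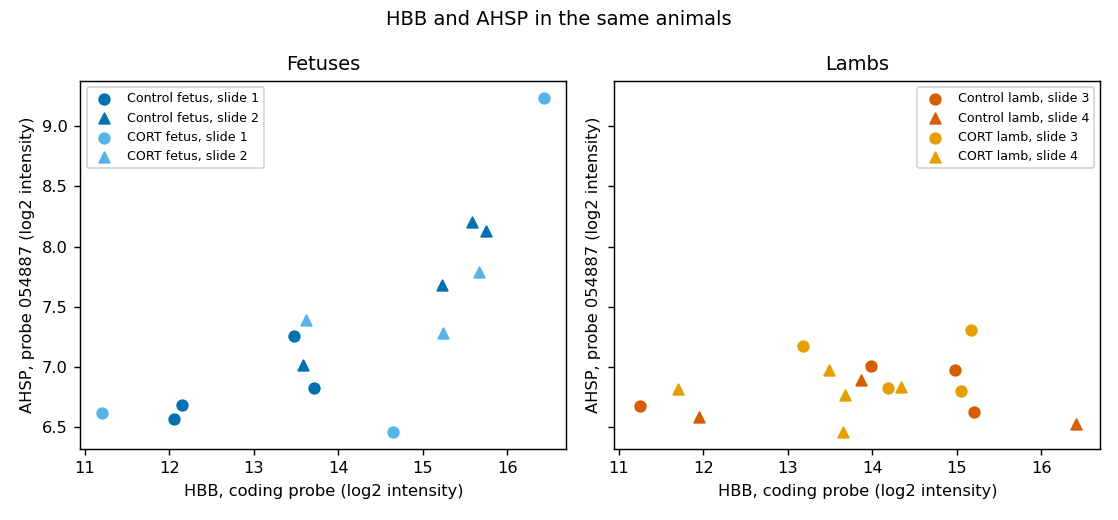
AHSP (probe A_70_P054887) against HBB (coding probe) in the same animals, both as log2 intensity, with slides marked by shape. Among Control fetuses the points rise together (r = 0.95), and among lambs AHSP stays between 6.46 and 7.31, close to background, over the whole range of HBB.

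The fetal beta-globin probe, the other beta-type chain measured, had its highest mean in Control fetuses at 9.01 ± 1.53 (SD, n = 8) and its lowest in CORT lambs at 6.65 ± 0.90 (SD, n = 9). Values ran from 7.07 to 11.49 (median 8.53) in Control fetuses and from 6.27 to 10.25 (median 7.90) in CORT fetuses. They ran from 6.25 to 10.95 (median 7.37) in Control lambs and from 6.13 to 9.02 (median 6.43) in CORT lambs. Signal well above background was present in 8 of 8 Control fetuses, 5 of 6 CORT fetuses, 4 of 7 Control lambs and 1 of 9 CORT lambs.

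None of the differences between groups passed the adjusted threshold in limma. The difference was -1.08 between Control lambs and Control fetuses (SE 0.79, adjusted p = 0.301), and -0.88 between CORT and Control fetuses (SE 0.78, adjusted p = 1.00). Between CORT and Control lambs it was -1.28 (SE 0.63, 95% confidence interval -2.62 to 0.05, adjusted p = 1.00), with an exact permutation p of 0.0938, and 8 of 9 CORT lambs were under the Control mean. It was -0.78 without Control lamb 7, -0.53 within slide 3 and -2.44 within slide 4, and -2.63 with the scanner-corrected signal. With 1 of 9 CORT lambs well above background, the CORT side of this difference is mostly at the floor.

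The coding and EST probes of HBB followed each other (r = 0.91 over 30 animals with group means removed, a description, since both are read on the same array), but not equally in all animals. The size of a difference between probes has no scale of its own, and only its variation among animals is read here. It did not differ past the threshold between groups, by exact permutation, in maturation (-0.91, p = 0.0643), lambs (-0.36, p = 0.122) or fetuses (-0.77, p = 0.105), with an adjusted p = 0.216 for each. It was largest in Control fetus 5, at 2.90, and Control fetus 6, at 2.38, and among lambs in Control lamb 6, at 1.57. In those animals the fetal beta-globin probe stood at 9.92, 11.49 and 9.72.

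Over the 14 fetuses, the difference between the HBB probes was higher where the fetal beta-globin signal was higher (r = 0.73, permutation p = 0.00133, and rho = 0.80, permutation p = 0.00093). These permutations pooled both treatments and both slides, so shifts between treatments or slides count in their p-values. Without the 2 animals farthest from the median, r was 0.58, and within slides, with treatment means removed, r was 0.68 and 0.55. No p was computed within slides. In lambs the fetal beta-globin values fell into separate clusters, so no r is given. In the 5 lambs where that probe was well above background the difference between the HBB probes was 0.02 to 1.57, and in the other 11 it was -0.44 to 0.05. Whether the coding probe binds transcripts of other beta-type chains was not tested.

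**Figure D4:**
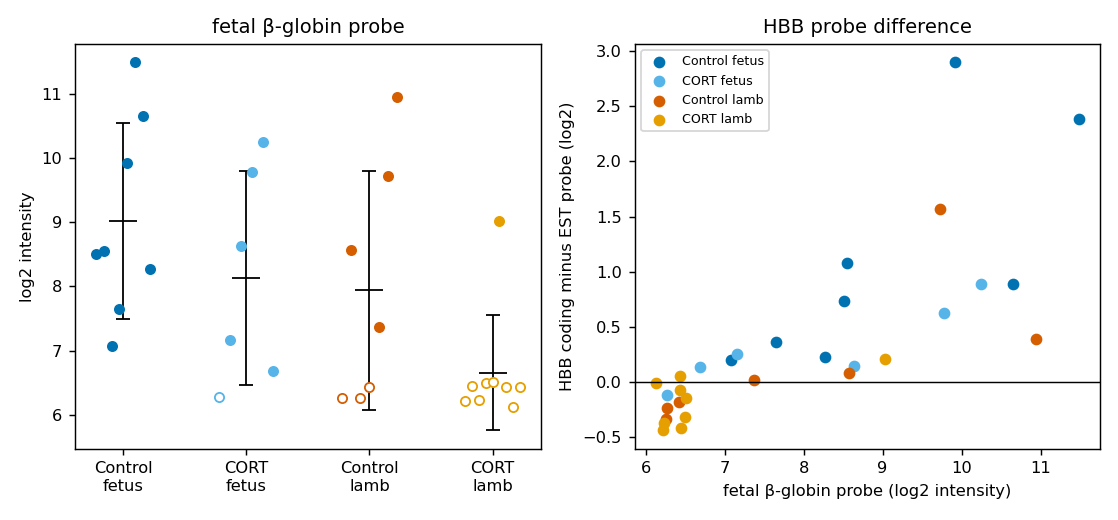
Left, log2 intensity of the fetal beta-globin probe by group, with open points not well above background and bars for the mean and SD. Right, the log2 difference between the coding and the EST probe of HBB against the fetal beta-globin probe, 1 point per animal. The difference rises to 2.90 in Control fetus 5 and is at or below 0.05 in the 11 lambs whose fetal beta-globin signal was not well above background.

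Of the 72 genes on a list of erythroid genes, 7 had a tested probe. These were HBB, the fetal beta-globin probe and AHSP, with UROD, an enzyme of heme synthesis, SLC25A38, a mitochondrial carrier that heme synthesis requires, EPOR, the erythropoietin receptor, and KIT, a receptor of early progenitors. In Control lambs compared to Control fetuses, 1 of the 7 was lower and none was higher, where 21% of all tested probes were lower and 19.9% higher. The median difference of the list was -0.06 against -0.01 over all tested probes. The gene that passed was UROD, which ran from 12.42 to 12.96 (median 12.77) in Control fetuses and from 12.12 to 12.68 (median 12.45) in Control lambs, and fell by 0.32 (SE 0.09, limma adjusted p = 0.00988). UROD is made in all cells that synthesize heme, and its groups overlapped. SLC25A38, EPOR and KIT had differences of -0.06, 0.09 and -0.03. In each cortisol comparison and in the difference between them, none of the 7 passed the adjusted threshold in limma.

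Leukocyte and platelet markers were read from fixed lists, also between Control lambs and Control fetuses. In bulk tissue their signal cannot be assigned to cells of the blood rather than cells of the fat itself. Among leukocyte markers 3 of 8 were higher in Control lambs in limma and none was lower, against 19.9% higher and 21% lower of all tested probes: FCER1G by 0.85 (SE 0.09, adjusted p = 1.27e-06), ITGB2 by 0.67 (SE 0.16, adjusted p = 0.00334) and CD14 by 0.28 (SE 0.07, adjusted p = 0.00525). The T cell markers of the same list, CD3E, CD3D and LCK, had differences of -0.52, -0.20 and -0.06 and did not pass, nor did ITGAM at 0.07 and LYZ at 0.25. The mean log2 level of the 8 markers ran from 7.29 to 8.00 in Control fetuses and from 7.63 to 8.17 in Control lambs. The 1 platelet marker measured, SELP, was higher by 0.40 (SE 0.09, limma adjusted p = 0.00218). Every leukocyte or platelet marker that passed was thus higher in Control lambs, and the T cell markers had lower means without passing. The part of these markers in the AHSP result was not tested. Of the adipocyte markers, which were well above background on every array for 6 of 6 genes, 2 were higher and 1 was lower, and of striated muscle markers 0 of 2 passed, where 40.9% of all tested probes passed.

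The named genes whose values followed HBB most closely over the 30 animals, with group means removed, were IGFBP2, an insulin-like growth factor binding protein (r = 0.72), LOC443411, which the array describes as the gamma subunit of the sodium potassium ATPase (r = 0.61), LOC443069, a metabotropic glutamate receptor (r = 0.61), CSN2, a casein (r = 0.61), and SST1, a somatostatin receptor (r = 0.60). The AHSP probe had r = 0.57 with HBB. Those most like AHSP were LOC100037674, described as thymidylate synthetase (r = 0.62), ASPM, a mitotic spindle protein (r = 0.58), ACLY, an enzyme that makes cytosolic acetyl-CoA (r = 0.56), OXTR, the oxytocin receptor (r = 0.55), and CCNA2, a cyclin (r = 0.54). The likeness was computed over 1372 named probes, and all points share the same arrays, so these values are a description.

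Without the group means removed, IGFBP2 again led for HBB (r = 0.72), followed by LOC443069, LOC443411, MGLUR7 and FCGRT. For AHSP the order was then OXTR (r = 0.66), ACLY, MSTN, CKB and ETBR. Among all tested probes, 1 unnamed probe, A_70_P040301, was the closest to both genes outside the globin and AHSP probes, with r = 0.86 to HBB and 0.80 to AHSP. Its means were 8.76 ± 1.08 (SD, n = 8) in Control fetuses, 9.11 ± 1.31 (SD, n = 6) in CORT fetuses, 8.03 ± 0.43 (SD, n = 7) in Control lambs and 7.93 ± 0.56 (SD, n = 9) in CORT lambs. The difference between Control lambs and Control fetuses was -0.73 (SE 0.40, limma adjusted p = 0.158).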

How the data were processed

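The files hold, per the file headers, the mean foreground and median background intensity of each spot from Agilent Feature Extraction 10.1.1.1. The authors also deposited a matrix of log2 values, background corrected and quantile normalized with limma. Its 16 lamb columns followed the scanner values (Spearman rho 0.9996 to 0.9998) and served as an alternative. Its 14 fetal columns did not (rho -0.00837 to -0.00385) and were not used. Scanner flags gave the probes well above background, saturated or outlying.

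Intensities were corrected in limma 3.58.1 (R 4.3.3) by normexp (offset 50). Quantile normalization ran over the gene spots of all 30 arrays after 3 to 17 outlier spots per array were removed, and repeated spots were averaged. A probe was tested if at least 10% brighter than the 95th percentile of the array's 77 negative controls on 6 or more arrays, which left 13096. A gene's value is that of its brightest probe by mean, and other probes are named. Tests used lmFit and eBayes on the groups compared, two-sided, with Benjamini-Hochberg adjustment over all tested probes at 0.05, and exact permutation over animals. Relations used exact permutation of pairings, or 100000 resamples for 14 fetuses. Named genes were both members, every erythroid-list gene with a tested probe, and the 5 named genes most like each member. The relation of the HBB probes, the covariate fits, and the genes taken relative to HBB were added after seeing the data. The members and lists were chosen with earlier results of these data known. The labels name replicates without saying that each is a separate animal, which was assumed. If some are not, the p-values measure technical spread. The procedure was tested on simulated data. Alternatives changed the background correction, scaling, filter, slide, samples, weights and probe.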

Additional observations from a re-analysis of the deposited data

Results flagged for a closer look

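In 20 sets of values, 5 probes in 4 groups, the highest and the lowest animal were compared with the rest of their group by Dixon's ratio of the gap to the range. Chance alone gives about 1 in 20 such sets a far animal, and 2 were found. The fetal beta-globin probe in CORT lamb 6 was at 9.02 with the nearest other CORT lamb at 6.50, a gap of 0.870 of the range. AHSP in CORT lamb 2 was at 7.34 on probe A_70_P054886 with the nearest at 6.82, a gap of 0.508 of the range. On the overlapping AHSP probe CORT lamb 2 was also the highest of its group, at 7.31, without passing the limit.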

How the results depend on the processing

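Of the HBB results, the near-zero maturation difference of 0.01 changed sign with cyclic loess (-0.00833) and array weights (-0.18) and ran from -0.40 to 0.46 with each animal left out. The HBB lamb cortisol difference was 0.24 by the EST probe and ran from -0.57 to 0.29 with each lamb left out. The HBB fetal cortisol difference ran from 0.13 to 1.18 and the HBB difference of cortisol effects from -1.30 to -0.24.

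AHSP maturation, not past the adjusted threshold in limma as reported, passed it with the scanner-corrected signal (-2.02), with no background subtraction (-0.70), with array weights (-0.68), by the other AHSP probe (-0.66) and with HBB as a covariate (-0.54 and -0.66). It ran from -0.65 to -0.41 with each animal left out (adjusted p from 0.0276 to 0.136). The AHSP difference of cortisol effects, -0.04, changed sign with the scanner-corrected signal (0.79), cyclic loess (0.00890), no background subtraction (0.0176) and an offset of 16 (0.0174), and ran from -0.24 to 0.32 with each animal left out. The fetal AHSP cortisol effect ran from -0.19 to 0.37. The cause of these changes was not tested.

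The HBB and AHSP relation lost its call in Control fetuses with the EST probe of HBB (r = 0.70). It changed sign in CORT lambs with the scanner-corrected signal (r = -0.0556) and in Control lambs with the EST probe (r = -0.0541). For the fetal beta-globin probe, the difference of cortisol effects was 0.35 with array weights, and ran from -0.77 to 0.10 with each animal left out.

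The replicate numbers did not meet the rule for pairs, since not every same-numbered pair deviated together. Correlations over 0.1 were found in 5 of 7 pairs of lambs, 3 of 6 pairs of fetuses and 1 of 7 pairs across ages, and 4 of 7, 1 of 6 and 0 of 7 pairs were the best match of their number. Same-numbered lambs also share a slide, as do same-numbered fetuses except number 4. With the number as a replicate block, AHSP maturation was -0.49, HBB maturation 0.19, the fetal beta-globin probe passed the threshold in maturation (-1.18, limma adjusted p = 0.0256), and the fetal cortisol comparison called 1 probe in place of 0. It also called 1 probe without CORT fetus 2. All other counts of called probes stayed within 1.5 times, from 4416 to 5864 for maturation against 5351. AHSP in lambs is limited by signal over background, and HBB by the spread among animals.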
